A study of Mus musculus with 6 samples.

Results

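The mitochondrially encoded transcripts of the mouse heart were examined in CMNKO and LC mice. They were taken as the rows of the gene-level count table whose symbols are those of genes carried by the mitochondrial DNA, which gave 33 of 17121 rows. These were the 13 mRNAs, the 2 ribosomal RNAs (Rnr1, the 12S rRNA, and Rnr2, the 16S rRNA) and 18 of the 22 annotated tRNA genes. TrnF, TrnV, TrnD and TrnK had no row under this rule and were not analysed here. RNA-sequencing was performed on left ventricles of 3 CMNKO mice (CMNKO 16, CMNKO 17 and CMNKO 18) and 3 littermate control mice (LC 15, LC 25 and LC 26), with 1 library per mouse. CMNKO mice carry floxed NCoR1 alleles and αMHC-Cre, which deletes the nuclear receptor corepressor NCoR1 in cardiomyocytes. All mice were on a C57BL/6 background (C57BL6/J in the study's methods) and 2 months old. The sources used here do not say which sex the mice were or whether LC mice carry αMHC-Cre, and no group with αMHC-Cre alone was sequenced. A ventricle also holds cells that αMHC-Cre does not target.

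The mitochondrial DNA is a small circle that is transcribed from both strands into long precursor RNAs. In most places a tRNA stands between neighbouring genes, and the mRNAs and rRNAs are released when these tRNAs are cut out. The mRNAs encode core subunits of the respiratory chain and of ATP synthase, the rRNAs build the mitochondrial ribosome, and the tRNAs serve translation inside the organelle. All other proteins that the system needs, the polymerase and most respiratory chain subunits included, are encoded in the nucleus. Cardiomyocytes are packed with mitochondria, so that these transcripts take up a large share of the RNA of a ventricle. In bulk tissue, fewer cells of a type and less RNA per cell cannot be told apart, and the same holds for fewer mitochondrial genomes and less RNA from each.

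The sequences below are those of the rows on which the comparison turned and of the neighbours needed to read them, printed 5′ to 3′ on the coding strand as in the GENCODE vM21 transcripts (GRCm38). ATP8 encodes a small subunit of ATP synthase, and its reading frame runs into that of ATP6, so that a read in the last 43 bases (capitals) belongs to both genes. The genes ND4L and ND4 shared 7 bases and ND5 and ND6, which lie on opposite strands, shared 14.
ATP8: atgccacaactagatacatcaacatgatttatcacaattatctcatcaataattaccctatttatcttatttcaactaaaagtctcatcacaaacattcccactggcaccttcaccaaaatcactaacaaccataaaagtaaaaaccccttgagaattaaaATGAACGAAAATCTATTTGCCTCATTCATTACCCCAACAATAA

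TrnW, the tryptophan tRNA, lies between ND2 and the light-strand tRNA genes that precede COX1. TrnH, TrnS2 and TrnL2, the tRNAs for histidine, 1 set of serine codons and 1 set of leucine codons, lie side by side between ND4 and ND5. TrnL1 reads the other leucine codons and lies next to Rnr2. Capitals mark the anticodon, which is TAG in TrnL2 and TAA in TrnL1. For TrnS2 the first match to its anticodon is marked.
TrnW: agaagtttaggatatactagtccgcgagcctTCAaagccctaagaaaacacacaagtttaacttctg
TrnH: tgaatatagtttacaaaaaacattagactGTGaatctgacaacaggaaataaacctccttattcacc
TrnS2: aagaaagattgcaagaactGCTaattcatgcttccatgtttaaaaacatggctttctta
TrnL2: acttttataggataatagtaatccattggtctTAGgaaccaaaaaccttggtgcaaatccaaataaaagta
TrnL1: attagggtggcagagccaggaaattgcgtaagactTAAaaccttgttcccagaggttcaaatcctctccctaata

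Some mitochondrial genes have near-identical copies in the nuclear genome, and reads from such genes cannot be placed by sequence alone. Every 50-base window of the mitochondrial genes was therefore looked up in 141730 annotated nuclear transcripts. All windows of COX2 (100%) and 99.9% of those of COX3, 99.5% of ATP6, 98.8% of ND4L and 293 of 299 windows of ND3 occurred in a nuclear transcript, and so did 62.2% of ND4 and 51.1% of COX1. For each of these rows the nuclear gene with the most matching windows lay on chromosome 1. Fewer windows matched for ND2 (8.2%), ND5 (7.6%) and Rnr2 (1.0%), with the best matches on chromosomes 2, 13 and 6. Gm28661, the copy of COX2, was identical over 681 of 681 bases, Gm28437 was identical to COX3 over 783 of 783 and Gm10925 to ATP6 over 678 of 678. ND3, a complex I subunit, differed from its copy Gm28438 at 1 of 345 bases. The substitution was T3C, counted from the first base of ND3 and marked by a capital in the first 60 bases of both.
ND3: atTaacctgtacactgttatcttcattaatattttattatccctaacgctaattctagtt
Gm28438: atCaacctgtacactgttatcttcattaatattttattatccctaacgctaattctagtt

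No window of ATP8, of CYTB, of ND1 or of any tRNA was found in an annotated nuclear transcript, although nuclear sequence outside annotated transcripts was not searched. The last 43 bases of ATP8, with which ATP6 begins, do lie in Gm10925, and a window of 50 bases could not show this. The sources used here do not say how the authors counted reads with more than 1 placement or whether they used strand. The levels of the rows with copies, of ND6 beside ND5 and of ATP8 beside ATP6 are uncertain for this reason.

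Total counts per library were 6319488 to 8752609. Ncor1, the targeted gene, had 50.5, 51.3 and 42.4 CPM (counts scaled to a common library size by TMM) in CMNKO ventricles, against 111, 102 and 90.7 CPM in LC ventricles, and it fell by 1.07 on the log2 scale (SE 0.13, adjusted p = 0.00845, edgeR quasi-likelihood test, Benjamini-Hochberg method over all tested genes, as for every adjusted p of edgeR here). Its call was lost without any 1 of the CMNKO libraries (adjusted p = 0.0536 to 0.0862 by edgeR). The summed level of 10 ventricular cardiomyocyte markers was 77550 to 86320 CPM in CMNKO ventricles and 72140 to 89490 CPM in LC ventricles. Of these 10 markers, 6 had log2 fold changes below 0 and 4 above it, and none was called by edgeR. At an unadjusted p under 0.05 there were 3, against 18.9% of all tested genes. Tnnt2 had 5621, 5343 and 6256 CPM in CMNKO ventricles, against 8350, 8011 and 9469 CPM in LC ventricles, with the groups apart. Its log2 fold change was -0.58 (SE 0.15, adjusted p = 0.0958 by edgeR). The library numbers in the labels set LC 25 and LC 26 apart from LC 15 and the CMNKO libraries. These libraries are called the later and the earlier series here, a name that the labels do not use. Of the markers of other cells, those of 3 lists had sums that lay apart, higher in CMNKO. The 8 endothelial markers summed to 763 to 873 CPM in CMNKO and 540 to 678 CPM in LC, the 7 smooth muscle and pericyte markers to 687 to 1020 and 273 to 434 CPM, and the 3 atrial markers, mostly Nppa, to 1009 to 1525 and 355 to 757 CPM. Of the smooth muscle and pericyte sums, Acta2 alone gave 432, 391 and 698 CPM in CMNKO ventricles, against 138, 70.5 and 172 CPM in LC ventricles. The paper reports Nppa as a fetal gene raised in CMNKO hearts. Myl4, the other atrial marker tested, had a log2 fold change of -0.50, opposite to Nppa at 1.18. The fibroblast, macrophage and erythrocyte sums overlapped, at 715 to 1169 CPM in CMNKO and 616 to 774 CPM in LC for fibroblasts, 159 to 234 and 112 to 166 CPM for macrophages and 284 to 320 and 316 to 461 CPM for erythrocytes, and adipocyte markers were too rare to be tested. Acta2 was the only marker of these lists past the adjusted threshold by edgeR. All 23 endothelial, smooth muscle, pericyte and fibroblast markers and all 7 macrophage markers had log2 fold changes above 0. At an unadjusted p under 0.05 they numbered 14 and 3, against 18.9% of all tested genes. Of the 5 erythrocyte markers, 4 lay below 0. With the library series as a term in the fit, the median log2 fold change was 0.13 for the smooth muscle and pericyte list, against 0.78 without the term, and 0.30 for the endothelial list, against 0.49 without it. The part of other cells in the results below was not tested.

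Mitochondrially encoded RNA made up 28.1%, 27.2% and 26.5% of all counts in CMNKO 16, CMNKO 17 and CMNKO 18, against 26.4%, 36.4% and 33.1% in LC 15, LC 25 and LC 26. The means were 27.3% ± 0.808 in CMNKO ventricles and 31.97% ± 5.06 in LC ventricles (SD, n = 3 each). The groups overlapped, since LC 15 was at the level of the CMNKO libraries and LC 25 and LC 26 were above all of them. The mean difference of -4.70 percentage points was smaller than the SD among LC ventricles, and against LC 15 alone the CMNKO mean was 0.827 points higher. The share of the mRNAs was split in a similar way, with 26.9%, 26.2% and 25.6% in CMNKO ventricles, against 25.6%, 34.9% and 31.5% in LC ventricles. Here LC 15 lay within the CMNKO range.

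**Figure D1:**
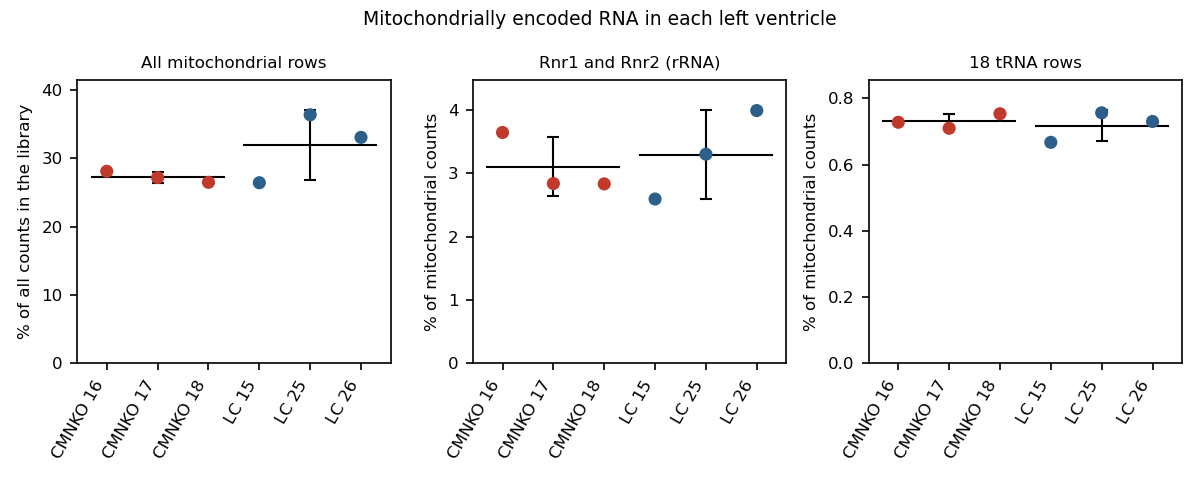
Mitochondrially encoded RNA in each left ventricle, as % of all counts (left), and the rRNA and tRNA rows as % of mitochondrial counts (middle and right), for 3 CMNKO libraries (red) and 3 LC libraries (blue). Lines are group means and bars SDs. In the left panel LC 15, at 26.4%, sits beside the CMNKO libraries at 26.5% to 28.1%, below LC 25 and LC 26.

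The mitochondrial counts were divided in nearly the same way in both genotypes. The mRNAs took 95.6%, 96.4% and 96.4% of them in CMNKO ventricles, against 96.7%, 95.9% and 95.3% in LC ventricles. The rRNAs took 3.65%, 2.84% and 2.84% in CMNKO ventricles, against 2.60%, 3.30% and 3.99% in LC ventricles. The tRNA rows took 0.728%, 0.710% and 0.754% in CMNKO ventricles, against 0.668%, 0.757% and 0.730% in LC ventricles. The groups overlapped in all 3 classes. The sources used here do not say whether poly(A) RNA was selected or rRNA depleted, and counts at a tRNA gene do not tell the mature tRNA from a precursor that still holds it. The share of rRNA and tRNA counts therefore describes these libraries rather than the RNA of the cell.

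By the respiratory complex that they serve, the mRNAs also kept their proportions. The 7 complex I mRNAs took 37.8%, 37.6% and 37.9% of mitochondrial counts in CMNKO ventricles, against 38.1%, 38.4% and 36.8% in LC ventricles. The 3 complex IV mRNAs took 41.7%, 43.4% and 43.1% in CMNKO ventricles, against 42.0%, 41.7% and 42.9% in LC ventricles, and CYTB of complex III took 15.7%, 14.99% and 15.1%, against 16.2%, 15.3% and 15.2%. ATP6 and ATP8 together took 0.430%, 0.386% and 0.365% in CMNKO ventricles, against 0.410%, 0.408% and 0.422% in LC ventricles. No complex had groups that lay apart.

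Levels per length, in CPM per kb of gene with the library total as denominator, differed widely along the molecule. COX1, the catalytic subunit of complex IV, stood highest in every library with group means of 73138 in CMNKO and 84559 in LC ventricles. CYTB followed with 36400 and 43427, ND1 with 29369 and 33359, and ND2 with 23185 and 27007. ND6, ND5 and ND4 lay close together, with CMNKO means of 14441, 13640 and 13073 and LC means of 16019, 16932 and 15294, so that their order was not the same in both groups. The mRNAs with the lowest levels were COX2 (2839 in CMNKO and 3500 in LC), COX3 (2070 and 2460), ATP6 (1259 and 1460), ATP8 (1067 and 1606), ND4L (815 and 918) and ND3 (481 and 719). These 6 mRNAs lie in a row between COX1 and ND4, and 5 of them are the rows whose windows were nearly all found in nuclear transcripts. COX1 and COX2 are subunits of the same complex, yet the COX1 row was 25.8-fold higher per length in CMNKO and 24.2-fold higher in LC ventricles. The part of the nuclear copies in these levels was not tested.

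**Figure D2:**
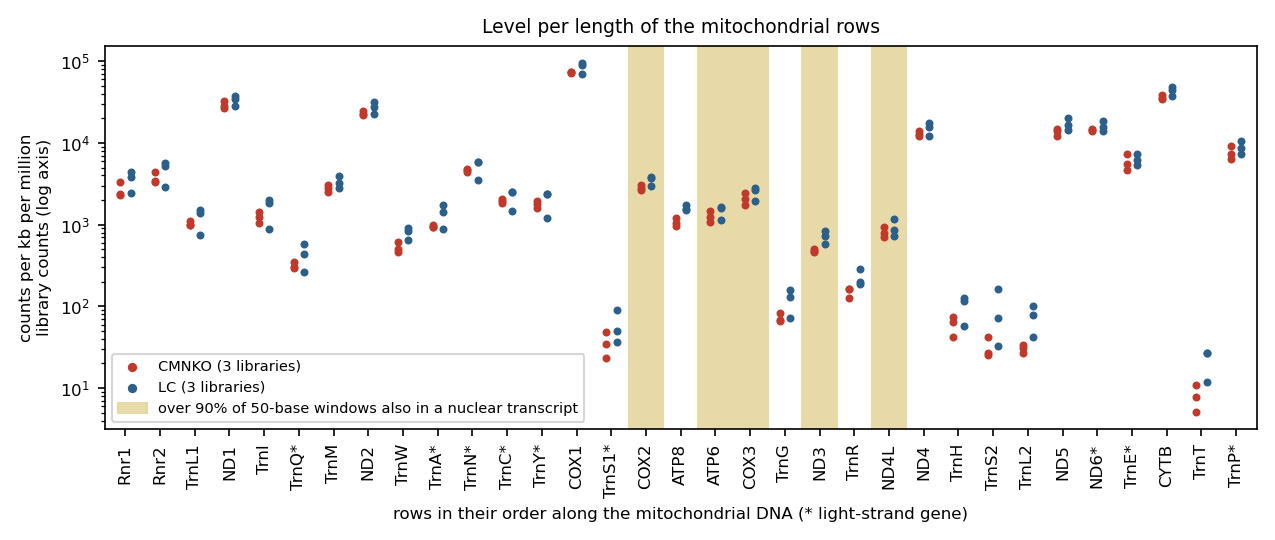
Level per length of the 33 mitochondrial rows (CPM per kb, log axis) in the order of the genes along the mitochondrial DNA, with 3 CMNKO libraries in red to the left of 3 LC libraries in blue. Shaded rows (COX2, ATP6, COX3, ND3 and ND4L) had over 90% of their 50-base windows in an annotated nuclear transcript, and they and ATP8 were the lowest mRNA rows. A star marks genes on the light strand.

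The 2 rRNAs, Rnr1 and Rnr2, had CMNKO means of 2680 and 3755 and LC means of 3572 and 4607 on the same scale. Among tRNA rows, TrnP had the highest level per length (7593 in CMNKO and 8798 in LC) and TrnE the next (5825 and 6286). Both lie on the light strand, at either side of CYTB and TrnT. TrnT, at the other extreme, had 3, 5 and 4 counts in CMNKO libraries, against 5, 12 and 15 counts in LC libraries, and it was the only member that the filter on low counts removed. The other 32 members entered the test across 13040 genes.

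All 32 tested members had log2 fold changes below 0 in CMNKO relative to LC ventricles, with a median of -0.41, while 49.8% of all tested genes lay below 0 and their median was 0.0012. A single member, ATP8, passed the adjusted threshold of 0.05 by edgeR and 0 members rose, against 0.337% of all tested genes called lower and 0.606% called in either direction. At an unadjusted p under 0.05, 13 of 32 members were lower, against 8.80% of all tested genes. The members are read from few precursors and share the libraries, so that they are not independent of each other. The direction of most of them rested on LC 25 and LC 26. With this series as a term, which leaves LC 15 as the only control, 13 members lay below 0 and 19 above it, while 48.8% of all tested genes lay below 0, and the median of the members was 0.03. Without LC 15, 28 of 33 members were called lower by edgeR, against 7.67% of all tested genes, and genotype cannot then be told apart from library series. Without CMNKO 16, CMNKO 17, CMNKO 18, LC 25 or LC 26, 0 members were called by edgeR, against 0%, 0%, 0.0453%, 0.179% and 0.121% of all tested genes called lower. At an unadjusted p under 0.05, 16, 10 and 10 of 33 members without 1 CMNKO library and 6 and 10 of 32 without LC 25 or LC 26 were lower, against 13.9%, 12.5%, 13.3%, 13.2% and 11.5% of all tested genes in either direction. The share that was lower alone is not given for these fits. With all libraries it was 8.80%, where either direction gave 18.9%.

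DESeq2 called 5 members lower (ATP8, ND3, TrnW, TrnL2 and TrnS2), against 1.13% of all tested genes, and limma-voom called ATP8 alone, against 0.376%. By edgeR with upper-quartile scaling ATP8 was again the only call (0.529% of all tested genes lower), as it was with no filter on low counts (0.257%) and with at least 10 counts required in every library (0.359%). With library totals only (0.153%) or with TMM on nuclear genes alone (0.322%) ATP8 missed the threshold and 0 members were called by edgeR. At an unadjusted p under 0.05, 8 and 13 members were lower, against 19.4% and 18.8% of all tested genes in either direction. The share that was lower alone is not given for these settings. With library totals only the fold changes of many members were closer to 0, with a median of -0.23 for the mRNAs, against -0.36 with TMM. All members tested lay below 0 under each of these settings.

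**Figure D3:**
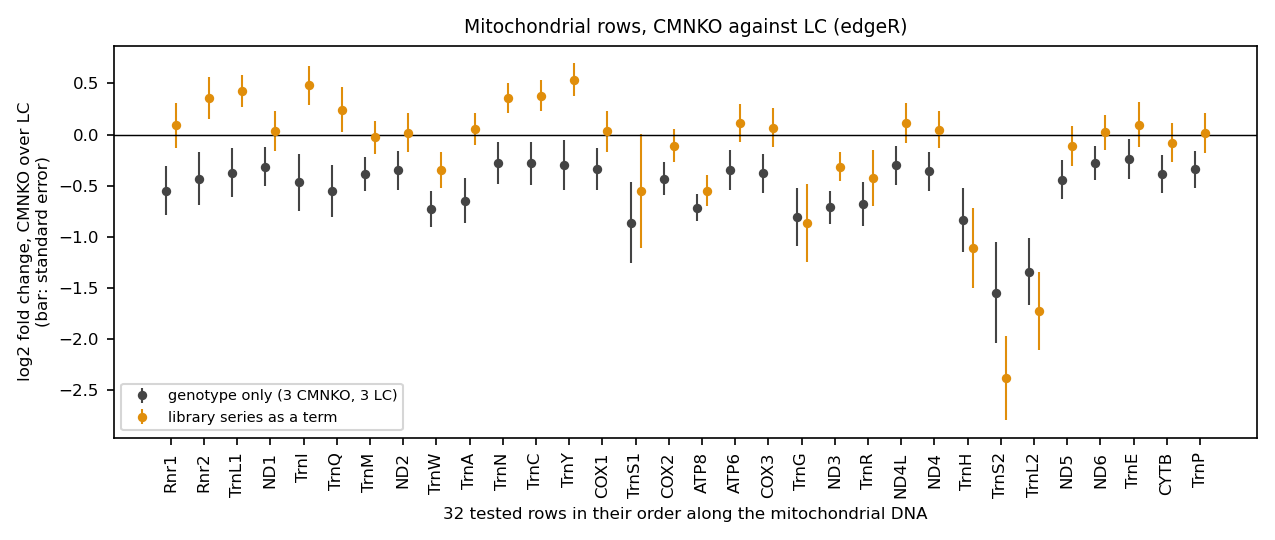
Log2 fold changes of the 32 tested mitochondrial rows, CMNKO over LC, in the order of the genes, with standard errors from edgeR. With genotype as the only term (grey) all 32 points lie below 0, and with the series term (orange) 13 lie below and 19 above 0.

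ATP8 had 191, 202 and 235 CPM in CMNKO ventricles, against 306, 378 and 346 CPM in LC ventricles. All CMNKO libraries were below all LC libraries, LC 15 included. The level averaged 209 ± 22.8 CPM in CMNKO and 343 ± 36.1 CPM in LC (SD, n = 3 each), and ATP8 fell by 0.72 on the log2 scale (SE 0.14, adjusted p = 0.0444 by edgeR's quasi-likelihood test). The log2 fold change was -0.55 with the series term, where the call was lost (adjusted p = 0.286 by the same test). The call was also lost without CMNKO 16 (-0.65), CMNKO 17 (-0.69), CMNKO 18 (-0.81), LC 25 (-0.64) or LC 26 (-0.71), with adjusted p-values by edgeR of 0.0797 to 0.249, and it was kept without LC 15 (-0.80).

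ATP6, which shares bases with ATP8 and encodes the subunit that forms part of the proton channel of ATP synthase, had 984, 787 and 701 CPM in CMNKO ventricles, against 763, 1210 and 1169 CPM in LC ventricles. Its groups overlapped through LC 15 (log2 fold change -0.35, SE 0.19, adjusted p = 0.345 by edgeR). The ratio of ATP8 to ATP6 counts was 0.194, 0.256 and 0.335 in CMNKO libraries, against 0.401, 0.312 and 0.296 in LC libraries. These ratios overlapped between CMNKO 18 and the later LC libraries (exact permutation test, two-sided, p = 0.30, n = 3 each).

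ND3 had 168, 158 and 156 CPM in CMNKO ventricles, against 200, 312 and 277 CPM in LC ventricles. The CMNKO libraries were close together and below every LC library. Its log2 fold change was -0.71 (SE 0.16, adjusted p = 0.0803 by edgeR's quasi-likelihood test), and -0.31 with the series term. ND4L, the next mRNA on the molecule and also a complex I subunit, had 274, 221 and 203 CPM in CMNKO ventricles, against 215, 369 and 277 CPM in LC ventricles, which overlapped. The ratio of ND3 to ND4L counts was 0.615, 0.714 and 0.767 in CMNKO libraries, against 0.930, 0.847 and 1.00 in LC libraries, and all CMNKO ratios were lower (exact permutation test, two-sided, p = 0.10, the smallest that 3 against 3 allows). Both rows have nuclear copies.

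The other complex I mRNAs had log2 fold changes closer to 0. ND5, which encodes a proton-pumping subunit, had 21643, 24179 and 25842 CPM in CMNKO ventricles, against 25857, 39036 and 32455 CPM in LC ventricles, and its groups lay apart by a narrow margin between CMNKO 18 and LC 15 (log2 fold change -0.44, SE 0.19, adjusted p = 0.241 by edgeR, and -0.11 with the series term). ND6, the only mRNA on the light strand, had 7305, 6898 and 7401 CPM in CMNKO ventricles, against 7089, 10309 and 8797 CPM in LC ventricles. The ratio of ND6 to ND5 counts, which face each other on the 2 strands, was 0.338, 0.285 and 0.286 in CMNKO libraries, against 0.274, 0.264 and 0.271 in LC libraries. Every CMNKO ratio was higher than every LC ratio (exact permutation test, two-sided, p = 0.10, the smallest possible), with CMNKO 16 farthest from LC. The log2 fold changes of ND1, ND2, ND4, ND4L and ND6 were -0.31, -0.35, -0.36, -0.30 and -0.28, and none had groups that lay apart.

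COX1 had 110223, 108074 and 107314 CPM in CMNKO ventricles, against 106081, 157496 and 148650 CPM in LC ventricles. LC 15 was the lowest of all libraries, so that the log2 fold change of -0.34 (SE 0.20, adjusted p = 0.376 by edgeR) rested on LC 25 and LC 26. CYTB, a heme-bearing subunit of complex III, had 42956, 38446 and 38640 CPM in CMNKO ventricles, against 42239, 59744 and 54591 CPM in LC ventricles. Here LC 15 lay within the CMNKO range, and the log2 fold change was -0.38, or -0.08 with the series term. COX2, which takes the electrons from cytochrome c, had 2058, 1802 and 1738 CPM in CMNKO ventricles, against 2014, 2791 and 2743 CPM in LC ventricles (log2 fold change -0.43, SE 0.16, adjusted p = 0.192 by edgeR, and -0.11 with the series term). COX3 was at -0.38 on the same scale, and both overlapped between groups.

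The rRNAs showed the same split within LC. Rnr1 had 3115, 2166 and 2104 CPM in CMNKO ventricles, against 2314, 3966 and 4531 CPM in LC ventricles (log2 fold change -0.55, SE 0.24, adjusted p = 0.251 by edgeR). Rnr2 had 6863, 5119 and 5156 CPM in CMNKO ventricles, against 4454, 8898 and 9790 CPM in LC ventricles, where LC 15 was the lowest of all (log2 fold change -0.43, SE 0.26, adjusted p = 0.377 by edgeR). CMNKO 16 was highest among CMNKO libraries for both. The ratio of Rnr2 to Rnr1 counts was 2.20, 2.36 and 2.45 in CMNKO libraries, against 1.93, 2.24 and 2.16 in LC libraries, and overlapped (exact permutation test, two-sided, p = 0.20, n = 3 each).

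The tRNA rows had a median log2 fold change of -0.55 over 17 tested rows, against -0.36 over the 13 mRNAs. These medians weigh rare and abundant rows alike, and with the series term they were 0.017 and 0.023. By summed counts the tRNA rows came to means of 0.760% of mitochondrial mRNA counts in CMNKO and 0.749% in LC libraries. The groups overlapped in this measure. The 9 tested heavy-strand tRNA rows had a median log2 fold change of -0.73 and the 8 light-strand rows one of -0.32. This difference between strands was not tested. With the series term the medians were -0.42 and 0.17. The lowest heavy-strand values came from rare rows, TrnS2 (10 to 60 counts per library) and TrnL2 (13 to 45). TrnM, TrnL1 and TrnI, the heavy-strand rows with the most counts, were at -0.38, -0.37 and -0.47. Together the heavy-strand tRNA rows took 0.160%, 0.146% and 0.151% of mitochondrial counts in CMNKO libraries. In LC libraries they took 0.151%, 0.175% and 0.163%, and the groups overlapped. The 2 tRNA rows with the highest level per length were nearer 0. TrnP, the proline tRNA, had 591, 469 and 407 CPM in CMNKO ventricles, against 483, 749 and 627 CPM in LC ventricles, and TrnE, the glutamate tRNA, had 311, 356 and 491 CPM, against 361, 545 and 462 CPM. Both overlapped between groups, at log2 fold changes of -0.34 and -0.24.

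TrnW had 30.2, 31.7 and 39.4 CPM in CMNKO ventricles, against 42.9, 64.7 and 60.4 CPM in LC ventricles, and its groups lay apart. Its log2 fold change was -0.73 (SE 0.18, adjusted p = 0.0894 by edgeR's quasi-likelihood test), and -0.34 with the series term. TrnA, which lies next to TrnW on the opposite strand, had 63.1, 63.9 and 61.9 CPM in CMNKO ventricles, against 60.5, 129 and 106 CPM in LC ventricles, and overlapped through LC 15. TrnR, the arginine tRNA between ND3 and ND4L, had 10.8, 8.10 and 10.7 CPM in CMNKO ventricles, against 13.3, 20.6 and 13.8 CPM in LC ventricles. Its groups lay apart as well (log2 fold change -0.68, adjusted p = 0.147 by edgeR, and -0.42 with the series term).

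TrnL2 was among the rarest rows, with 21, 13 and 17 counts in CMNKO libraries, against 45, 37 and 25 counts in LC libraries. As CPM this was 2.33, 1.82 and 2.13 in CMNKO ventricles, against 7.02, 5.95 and 3.28 in LC ventricles, with the groups apart (log2 fold change -1.34, SE 0.33, adjusted p = 0.0905 by edgeR). TrnL2 and its neighbours TrnH and TrnS2, together with TrnG, were the only 4 of 33 members that were higher in LC 15 than in the mean of LC 25 and LC 26. The other 29 members were lower in LC 15. TrnS2 had 14, 10 and 19 counts in CMNKO libraries, against 60, 28 and 16 counts in LC libraries, so that LC 26 lay within the CMNKO range while LC 15 stood above all others. Its log2 fold change was -1.55 (SE 0.49, adjusted p = 0.149 by edgeR), and -2.38 with the series term, where it was the only member called (adjusted p = 0.0487 by the same test, against 0.153% of all tested genes called lower). That value rests on LC 15 as the lone control. Without LC 15 it was -0.86. TrnH, TrnS2 and TrnL2 together had 78, 52 and 58 counts in CMNKO libraries, against 159, 117 and 73 counts in LC libraries, and as a share of mitochondrial counts LC 26 lay below every CMNKO library. TrnL1, the leucine tRNA beside Rnr2, overlapped as well with 80.5, 69.4 and 72.2 CPM in CMNKO ventricles, against 55.1, 121 and 112 CPM in LC ventricles.

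By CPM, 6 of 32 tested members (ATP8, ND3, ND5, TrnW, TrnR and TrnL2) had every CMNKO library below every LC library and 0 had every CMNKO library above, against 12.3% of all tested genes lower and 23.6% apart in either direction. As a share of mitochondrial counts, a measure that does not use nuclear genes or TMM, the groups lay apart for 5 of 33 members (15.2%, with no wider set of rows to compare on this scale), all lower in CMNKO. These were ATP8, ND3, TrnW, TrnL2 and TrnT, each with p = 0.10 by the exact permutation test, two-sided, which is the smallest that 3 against 3 libraries allow. The 33 shares were tested in the same way, so that none can pass after adjustment.

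ND3 took 0.0616%, 0.0616% and 0.0608% of mitochondrial counts in CMNKO libraries, against 0.0767%, 0.0802% and 0.0772% in LC libraries, so that LC 15 stood with the other LC libraries. ATP8 took 0.0698%, 0.0787% and 0.0916% in CMNKO libraries, against 0.117%, 0.0971% and 0.0965% in LC libraries, with LC 15 highest. TrnW took 0.0111%, 0.0124% and 0.0154% in CMNKO libraries, against 0.0165%, 0.0166% and 0.0168% in LC libraries. These 3 rows were lower in every CMNKO library than in any LC library, while COX1 overlapped, with 40.3%, 42.1% and 41.9% in CMNKO libraries, against 40.7%, 40.5% and 41.4% in LC libraries. On the log2 scale the mean shares of ND3, ATP8 and TrnW differed by -0.35, -0.37 and -0.36 (CMNKO over LC). The other 11 mRNAs lay between -0.08 and 0.08 on this scale. ATP8 and ND3 both lie in the low stretch between COX1 and ND4, where rows with nuclear copies are found, and TrnW does not.

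**Figure D4:**
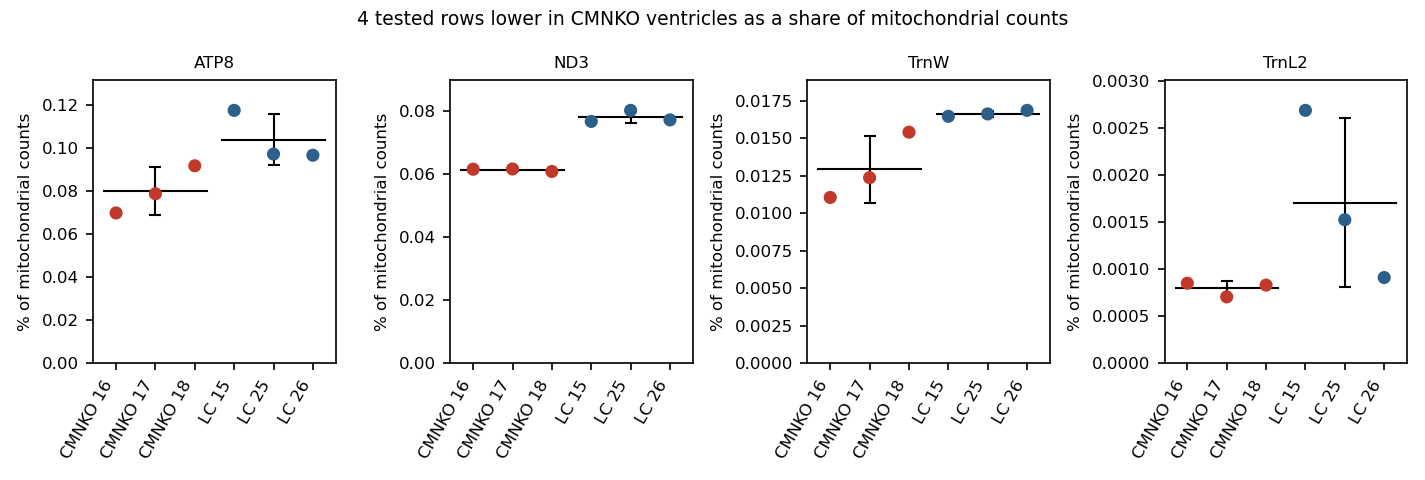
Share of mitochondrial counts (%) of ATP8, ND3, TrnW and TrnL2 in 3 CMNKO libraries (red) and 3 LC libraries (blue), with group means (lines) and SDs (bars). In each panel the CMNKO points lie below the LC points, and for ND3 the CMNKO libraries took 0.0608% to 0.0616% and the LC libraries 0.0767% to 0.0802%.

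Nuclear genes that act with the mitochondrial transcripts were counted in lists. The lists were chosen by function. None of the 8 tested genes for mitochondrial transcription was called in either direction, and neither was any of 28 genes for processing and stability of mitochondrial RNA or of 13 genes for maintenance of mitochondrial DNA, by edgeR's quasi-likelihood test. At an unadjusted p under 0.05 they numbered 0, 3 and 2, against 18.9% of all tested genes. Their median log2 fold changes were -0.15, -0.08 and -0.22. Hsd17b10, a subunit of the enzyme that cuts the 5′ end of mitochondrial tRNAs, had 93.0, 89.1 and 106 CPM in CMNKO ventricles, against 137, 136 and 165 CPM in LC ventricles, with the groups apart (log2 fold change -0.60, SE 0.13, adjusted p = 0.0717 by edgeR). Ptcd2, an RNA-binding protein of mitochondria, was at -0.37 (adjusted p = 0.215 by edgeR), and Mterfd1 and Mterfd2, of the family of mitochondrial transcription termination factors, were at -0.36 and -0.34 (adjusted p = 0.269 and 0.268 by edgeR). Mpv17, an inner membrane protein needed to keep mitochondrial DNA, had a log2 fold change of -0.54 (adjusted p = 0.104 by edgeR) and Ssbp1, which binds single-stranded mitochondrial DNA, one of -0.40 (adjusted p = 0.194 by edgeR).

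Of the nuclear subunits of the respiratory chain and ATP synthase, 70 of 76 lay below 0 and 6 above it. All 36 nuclear complex I subunits had log2 fold changes below 0, with a median of -0.26 beside -0.35 for the 7 mitochondrial ones. The 12 nuclear complex IV subunits had a median of -0.26 and all lay below 0, beside -0.38 for COX1, COX2 and COX3. The 9 nuclear complex III subunits had a median of -0.24 with 2 above 0, beside -0.38 for CYTB, and the 15 nuclear ATP synthase subunits one of -0.35 with 3 above 0, beside -0.72 for ATP8 and -0.35 for ATP6. The 4 subunits of complex II, which has no mitochondrially encoded subunit, had a median of -0.16 with 1 above 0. None of these 76 nuclear genes was called by edgeR at the adjusted threshold, and 26 had an unadjusted p under 0.05, against 18.9% of all tested genes. The smallest adjusted p was 0.104 (edgeR), for Ndufb2 of complex I (log2 fold change -0.48), Cox8b of complex IV (-0.57) and Sdhb of complex II (-0.47). The genes with the next smallest p of these lists, and the first of the other lists, were Ndufb10 (-0.41), Cox6a2 (-0.44), Sdhd (-0.22), Uqcr10 (-0.43) and Uqcrc2 (-0.36) of complex III and Atp5e (-0.44) and Atp5k (-0.51) of ATP synthase, with adjusted p-values by edgeR of 0.120 to 0.383.

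**Figure D5:**
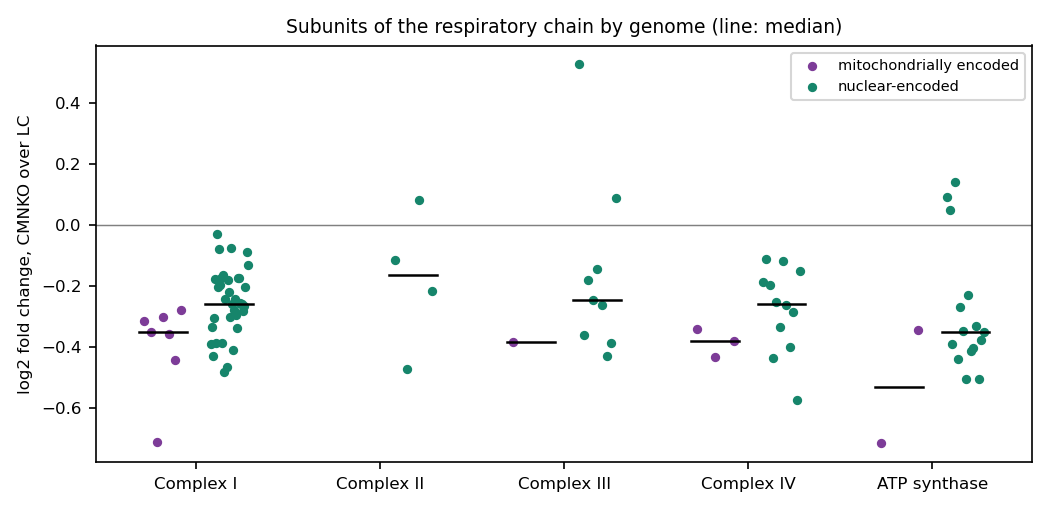
Log2 fold changes, CMNKO over LC, of mitochondrially encoded subunits (purple) and nuclear-encoded subunits (green) of the respiratory complexes and ATP synthase, with 1 point per gene and medians as lines. Complex II has nuclear subunits only, and all 36 nuclear complex I subunits lie below 0.

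The medians of the nuclear subunits moved less with the series term than those of the mitochondrial mRNAs. With the series term, 33 of 36 nuclear complex I subunits still lay below 0 with a median of -0.16, while the 7 mitochondrial ones had a median of 0.02. The medians of the nuclear subunits of complex III, complex IV and ATP synthase and of complex II were then -0.09, -0.12, -0.23 and -0.23. The summed level of the 36 nuclear complex I genes was 12584, 11807 and 12549 CPM in CMNKO ventricles, against 13721, 13907 and 16014 CPM in LC ventricles, so that LC 15 stood with LC 25. The other nuclear lists differed in this. For complex IV the sum in LC 15 (9906 CPM) lay between those in CMNKO 16 (9625 CPM) and LC 25 (10635 CPM). For complex III and ATP synthase LC 25 lay within the CMNKO range, at 5882 and 17381 CPM. For complex II LC 15 was the highest library, at 3559 CPM. Summed over the mitochondrial mRNAs, as a share of all counts, LC 15 lay within the CMNKO range. By CPM, LC 15 lay above every CMNKO library for ATP8, for ND3 and, by a narrow margin, for ND5. The difference between both sets of genes was not tested.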

How the data were processed

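RNA-sequencing data of 3 CMNKO and 3 LC left ventricles were analysed. TRIzol was used for total RNA and TruSeq technology for libraries. The submitters' processing notes name mm8 as the genome build. The authors deposited raw counts of reads for each gene symbol and mouse, whole numbers without normalization, and the sources used here name neither the aligner nor the counting step. The authors' normalized group means, log2 fold changes and FDR values, deposited in the same table, were not used, nor was the second table, a subset of these genes by fold change. Per-sample columns left unused numbered 0. No coordinates are printed, since the build of the annotation (GRCm38) differs from that of the counts.

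The whole table was fitted by edgeR 4.0.16 under R 4.3.3 (filterByExpr kept 13040 of 17121 genes, TMM scaling, quasi-likelihood test, genotype as the only term), with Benjamini-Hochberg adjustment over all tested genes and a threshold of 0.05. Alternatives were DESeq2 1.42.0, limma-voom (limma 3.58.1), other scalings and filters, the library series as a term and each library left out. Shares were also computed with mitochondrial mRNA counts as denominator. The fit was tested on simulated counts in which some genes were changed. The p-values measure the spread between libraries of different mice, which within LC includes any difference between the library series. Library totals of 6319488 to 8752609 counts set the depth, and TrnT, with 3 to 15 counts per library, was removed by this filter and tested only without a filter and in 4 of the fits with 1 library left out. The members and lists were chosen with earlier results of these data known. Any member could be named, and values in every library are given for members called, for those apart between groups, for the mRNAs and rRNAs on which a result turns and for abundant tRNA rows, and of each list of nuclear genes for mitochondria the 2 genes with the smallest p are named.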

Additional observations from a re-analysis of the deposited data

How the results depend on the processing

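No paired analysis was possible because LC and CMNKO libraries share no replicate numbers. Members called lower (1, ATP8) numbered 0 with library totals only and 0 with TMM on nuclear genes alone (ATP8 adjusted p = 0.0843 and 0.0501 by edgeR), 5 by DESeq2 (against 1.13% of all tested genes lower), and 0 to 28 with 1 library left out. The 28 came without LC 15, where genotype and library series coincide and 7.67% of all tested genes were called lower. The count was 1 with upper-quartile scaling, with either filter on low counts and by limma-voom. With library totals only, the median of all genes moved to 0.12 and that of the members to -0.27. With the series term, the log2 fold change turned sign for Rnr1 (0.090), Rnr2 (0.36), TrnL1 (0.43), ND1 (0.035), TrnI (0.48), TrnQ (0.245), ND2 (0.019), TrnA (0.057), TrnN (0.36), TrnC (0.38), TrnY (0.54), COX1 (0.033), ATP6 (0.11), COX3 (0.068), ND4L (0.11), ND4 (0.048), ND6 (0.023), TrnE (0.098) and TrnP (0.017), and so did the medians of all members (0.028), mRNAs (0.023), rRNAs (0.22) and tRNAs (0.017). The earlier series alone, an alternative chosen after seeing the data like the count without rows of a near-identical nuclear copy, turned the same values, at 0.089 for Rnr1, 0.018 for ND2 and otherwise at the values above to 2 digits. With the series term the genotype difference is likewise estimated from the earlier series alone, so this agreement was fixed by the design. In that series alone the mitochondrial share of all counts differed by 0.827 percentage points (CMNKO minus LC), and the shares of mitochondrial counts by -0.575 (mRNAs), 0.512 (rRNAs) and 0.0631 points (tRNAs). Ncor1 was at -1.15 to -0.99 with 1 library left out, and its call was lost without any 1 CMNKO library (adjusted p = 0.0536 to 0.0862 by edgeR). LC 15 is the lone control of the series term and is assumed to vary like the other libraries. The cause of these moves was not tested. TrnT, removed by the filter on low counts, was at -1.61 with no filter (adjusted p = 0.176 by edgeR) and at -1.93 without LC 15 (adjusted p = 0.0193).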
